A study of Mus musculus with 12 samples.

Results

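Homeobox and PAX genes outside the Hox clusters were followed across 6 concentrations of dTAG13 in mouse embryonic stem (mES) cells whose BRG1 can be degraded. The members were all genes in the count table with the symbols Pax1 to Pax9 and all those of the numbered Lhx, Nkx, sine oculis, Dlx, Irx, Lmx1, Meis, En and Emx families, taken by symbol. They came to 58 of 24421 genes, with 14 Nkx, 9 Pax, 8 Lhx, 6 sine oculis, 6 Dlx, 6 Irx, 3 Meis, 2 Lmx1, 2 En and 2 Emx genes. Olfactory receptor (Olfr) genes, which are used in olfactory neurons and are background-level genes in mES cells, were set beside them; the table held 1125 of these.

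The cells were a C57BL/6J male mES line grown in 2i and LIF, with an FKBP12 F36V degron tag knocked into Brg1, and colonies from single cells had been picked to make the line. All groups carry this allele. Cells were exposed for 24 h to dTAG13, which brings tagged BRG1 to degradation, at 0 (DMSO), 0.3, 1, 3, 10 or 100 nM, with 2 libraries per concentration and 12 in all. RNA was total RNA made into stranded paired-end libraries, which the authors counted without strand.

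BRG1 is an ATPase of the mSWI/SNF chromatin remodeling complexes. Homeobox and paired-box proteins bind DNA and set the identity of regions and cell types in the embryo, such as the eye, spinal cord, midbrain and placodes. Most of these genes have CpG-rich promoters and are held silent in mES cells by Polycomb proteins, and each is normally switched on only when the cells of its own tissue form.

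Total counts ran from 4663484 to 6375582 per library, of which Rn45s, a ribosomal RNA transcript, took 10.5 to 19.4%. Levels are RPKM, computed from the gene lengths and TMM library sizes, or CPM, counts relative to the TMM library size, summed over a list, and ± is the SD of 2 libraries. The pluripotency factors Pou5f1 and Nanog lay at 580 ± 21.7 and 232 ± 2.58 RPKM (n = 2) at 0 nM and at 486 ± 28.1 and 315 ± 0.747 RPKM (n = 2) at 100 nM. Of 8 mES markers, Tfcp2l1 alone was called changed at 100 nM (thresholds below), as lower. Dppa5a went from 808 to 546 RPKM, a log2 fold change of -0.57, just under the 1.5-fold minimum. By slope over the concentrations, 2 of the 8 were called higher and 4 lower (9.29% and 10.7% of all genes). Their summed level went from 4229 ± 54.6 to 3592 ± 58.8 CPM (n = 2), a ratio of 0.849. In the labels, the sample numbers of 0, 1, 10 and 100 nM form one series and those of 0.3 and 3 nM another, so 0.3 or 3 nM against 0 nM cannot be told apart from a difference between these series. In bulk RNA, more cells that use a gene and more RNA per cell cannot be told apart. The study describes its replicates as biological, while the labels only number the libraries of a group, and p-values measure the spread between these libraries.

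The promoters of 4 members and of the Olfr gene with the most counts are shown here because the members and the Olfr genes start from different kinds of promoter sequence. Each runs from 250 bases before the RefSeq start of the gene to 50 bases after it, on GRCm38.p6 (mm10), written 5′ to 3′ on the strand of the gene, and capitals mark CpG dinucleotides. Pax6 lies at chr2:105668646-105668945 (plus strand), En1 at chr1:120602237-120602536 (plus), Six4 at chr12:73113196-73113495 (minus), Nkx6-2 at chr7:139582748-139583047 (minus) and Olfr986 at chr9:40186829-40187128 (plus).
Pax6: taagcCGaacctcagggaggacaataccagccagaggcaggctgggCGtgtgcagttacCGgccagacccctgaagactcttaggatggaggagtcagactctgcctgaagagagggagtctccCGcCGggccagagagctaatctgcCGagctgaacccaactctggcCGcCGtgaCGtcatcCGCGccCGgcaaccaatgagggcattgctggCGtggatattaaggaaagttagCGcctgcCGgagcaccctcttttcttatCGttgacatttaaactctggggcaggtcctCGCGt
En1: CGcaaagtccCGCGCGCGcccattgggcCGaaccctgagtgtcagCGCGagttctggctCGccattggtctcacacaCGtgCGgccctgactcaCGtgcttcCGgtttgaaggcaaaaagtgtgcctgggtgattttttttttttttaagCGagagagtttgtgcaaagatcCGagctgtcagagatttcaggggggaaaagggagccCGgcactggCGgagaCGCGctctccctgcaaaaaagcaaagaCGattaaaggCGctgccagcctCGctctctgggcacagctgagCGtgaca
Six4: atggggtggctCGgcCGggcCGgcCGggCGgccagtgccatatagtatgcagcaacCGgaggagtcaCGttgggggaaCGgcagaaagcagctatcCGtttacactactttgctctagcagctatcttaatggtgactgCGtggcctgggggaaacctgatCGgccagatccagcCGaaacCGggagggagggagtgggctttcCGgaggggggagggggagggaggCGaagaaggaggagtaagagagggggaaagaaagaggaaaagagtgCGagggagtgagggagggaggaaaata
Nkx6-2: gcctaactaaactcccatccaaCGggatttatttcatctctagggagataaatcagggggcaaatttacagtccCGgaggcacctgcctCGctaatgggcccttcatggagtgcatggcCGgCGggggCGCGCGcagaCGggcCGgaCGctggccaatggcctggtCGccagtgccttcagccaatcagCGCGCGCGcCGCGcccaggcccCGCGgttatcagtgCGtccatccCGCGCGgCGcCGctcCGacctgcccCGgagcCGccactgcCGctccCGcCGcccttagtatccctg
Olfr986: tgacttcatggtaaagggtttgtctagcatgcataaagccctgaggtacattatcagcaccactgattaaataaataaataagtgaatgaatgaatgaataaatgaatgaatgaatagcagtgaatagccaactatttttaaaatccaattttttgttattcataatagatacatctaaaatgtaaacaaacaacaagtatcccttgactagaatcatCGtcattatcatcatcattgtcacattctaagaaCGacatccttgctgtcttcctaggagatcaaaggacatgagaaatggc

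The 4 member promoters hold 18, 23, 16 and 32 CpG, in that order, against 2 in the Olfr986 promoter. A RefSeq promoter was matched for 43 of the 58 members, and these had a median of 19 CpG per 300 bases (range 4 to 40) and a median GC content of 63.3%. The 933 matched Olfr promoters had a median of 1 CpG (0 to 13) and a GC content of 35.0%, and the 17220 matched promoters of all genes had a median of 13 CpG. At least 10 CpG stood in 39 of 43 member promoters (90.7%), in 0.214% of Olfr promoters and in 57.6% of all promoters. The letters TATAAA, searched on both strands, were found in 2 of 43 member promoters (4.65%), in 40.7% of Olfr promoters and in 12.9% of all promoters. CCAAT on either strand was found in 46.5%, 40.5% and 38.8%, respectively. Within the members, the gene that fell (Nkx6-2) and those that rose were alike CpG-rich. The 6 matched promoters of the 8 members called higher at 100 nM held 16 to 37 CpG, and that of Nkx6-2 held 32.

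**Figure D1:**
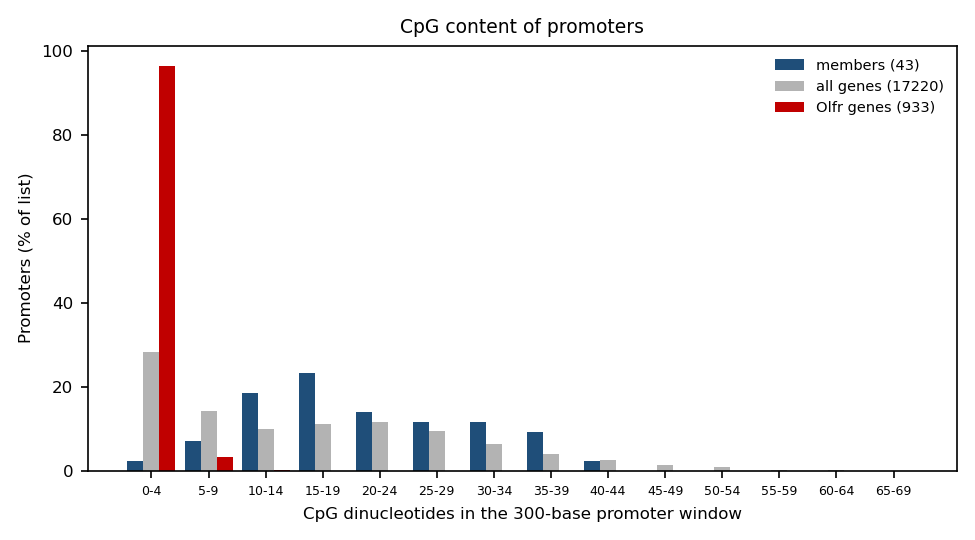
CpG dinucleotides in 300-base promoter windows (x axis, bins of 5) against the percentage of promoters in each list (y axis) for 43 members, 933 Olfr genes and 17220 genes of the table. Nearly all Olfr promoters lie in the lowest bin, while the member promoters spread over the CpG-rich bins, with a median of 19.

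Most members were close to silent in these cells. Only 9 of 58 members averaged 1 RPKM or more across the libraries, among them Nkx1-2 (21.6), Six4 (14.6), Nkx6-2 (10.6), Nkx6-3 (3.74), Irx2 (3.06), En2 (2.24), Nkx2-9 (1.41) and Six5 (1.34). The other 49 lay below it, and 44 members had at most 10 counts in every library. At 0 nM, 7 members had no count in either library, and 32 had at most 3 counts in each. At 100 nM no member was at 0 in both libraries, and 15 had at most 3 counts in each. The number of members with a count was 42 in each 0 nM library and 54 and 57 in the 100 nM libraries. Among the 49 members under 1 RPKM it was 33 in each 0 nM library and 45 and 48 at 100 nM. Among all 11826 genes under 1 RPKM it also rose, from 6824 and 6925 to 9331 and 9376, so more detected genes at 100 nM were not particular to the members.

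Differential expression was tested in edgeR (quasi-likelihood test) across the 23204 genes with a count, p-values were adjusted by Benjamini-Hochberg, and a gene was called at an adjusted p under 0.05 and a change of over 1.5-fold. At 100 nM, 8 of 58 members were called higher, among them Pax6, En1, Six4, En2, Nkx1-2, Six5 and Nkx1-1. Nkx6-2 was called lower. Of all genes tested, 3.37% were called higher and 4.62% lower. These shares depend on level. Of the 49 members with a mean under 1 RPKM, 3 were called higher and none lower, against 3.25% and 0.82% of the 11826 genes under 1 RPKM. Of the 9 members of at least 1 RPKM, 5 were called higher and 1 lower, against 3.5% and 8.57% of the genes at that level. These levels are means over all 12 libraries, so a rise can itself lift a gene into the upper class. Six5, one of the 5, was at 0.656 RPKM at 0 nM and at 1.34 over all libraries. Both 100 nM libraries lay above both 0 nM libraries for 25 members (43.1%), against 27.8% of all genes, and below both for 5 members, against 23.4%. Under 1 RPKM, both lay above for 19 of 49 members (38.8%) and below for 2 (4.08%), against 33.7% and 6.73% of genes at that level. The median log2 fold change at 100 nM was 0.76 over the 58 members and 0.09 over all genes tested. With genes at 0 in a group set at a floor of 3 counts over that group, the medians were 0.64 and 0.00. Over the 11826 genes with a mean under 1 RPKM, these medians were 0.88 and 0.31. Over the 49 members at that level they were 0.77 and 0.63, below such genes by the first median and above them by the second.

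**Figure D2:**
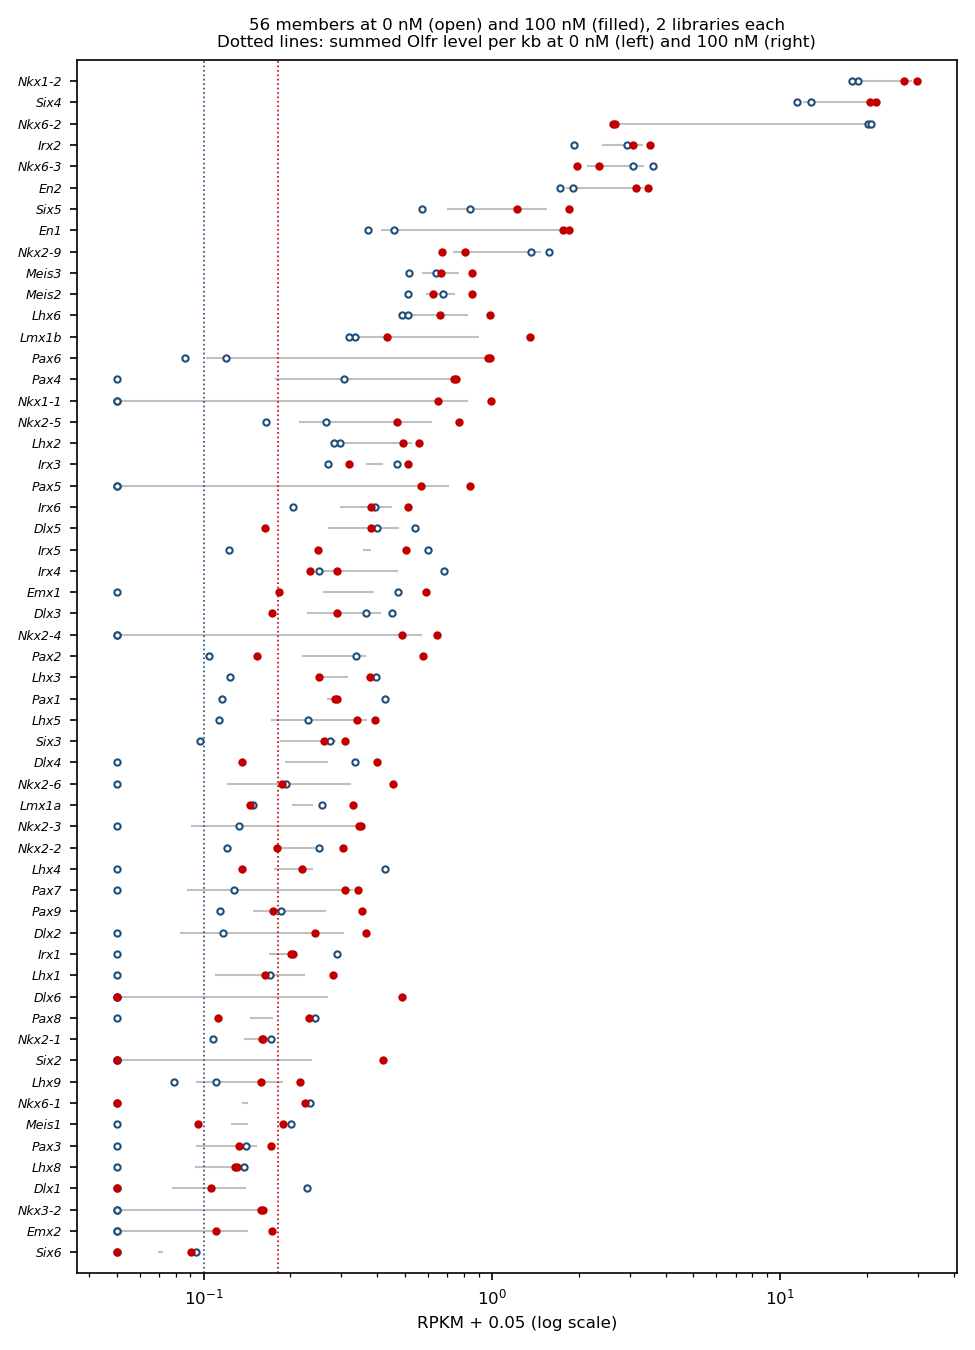
RPKM + 0.05 (x axis, log scale) of 56 members (rows) in the 2 libraries of 0 nM (open) and the 2 of 100 nM (filled), with a grey line between the means. Dotted lines mark the summed Olfr level per kilobase at both concentrations (0.0503 and 0.131 CPM per kb, each + 0.05). In 35 of the 58 members (60.3%), mean RPKM was higher at 100 nM by more than the distance between these levels. The same held for 46.9% of all genes tested, 56.0% of those under 1 RPKM and 51.7% of the Olfr genes.

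The number of calls grew with the concentration. At 0.3 nM no member was called in either direction (0.00431% of all genes higher, 0.0388% lower), and DESeq2 called none. At an unadjusted p under 0.05, 4 members were higher and none lower there (2.28% and 3.33% of all genes). At 1 nM only Nkx6-2 was called, as lower (0.138% of all genes higher, 0.474% lower), and DESeq2 called none higher. At an unadjusted p under 0.05, 6 members were higher and 2 lower at 1 nM (3.56% and 5.17% of all genes). At 3 nM 2 members, Pax6 among them, were called higher and Nkx6-2 lower (0.750% and 1.72% of all genes). At 10 nM 3 members, among them Pax6 and Six5, were called higher (1.70% of all genes higher), and Nkx6-2 was again lower (3.14%). A slope over the rank of the concentration, with all 12 libraries, was positive past the threshold for 8 members (among them Pax6, En1, Six4, Nkx1-2, Pax4, Pax5 and Pax7) and negative for Nkx6-2. Here 9.29% of all genes had a positive and 10.7% a negative slope. Between 3 and 0.3 nM, which stay within one label series, no member was called higher and Nkx6-2 was called lower (0.414% and 0.965% of all genes). At an unadjusted p under 0.05, 7 members were higher and 4 lower, with no share over all genes to set beside them. DESeq2 was not run on this pair.

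**Figure D3:**
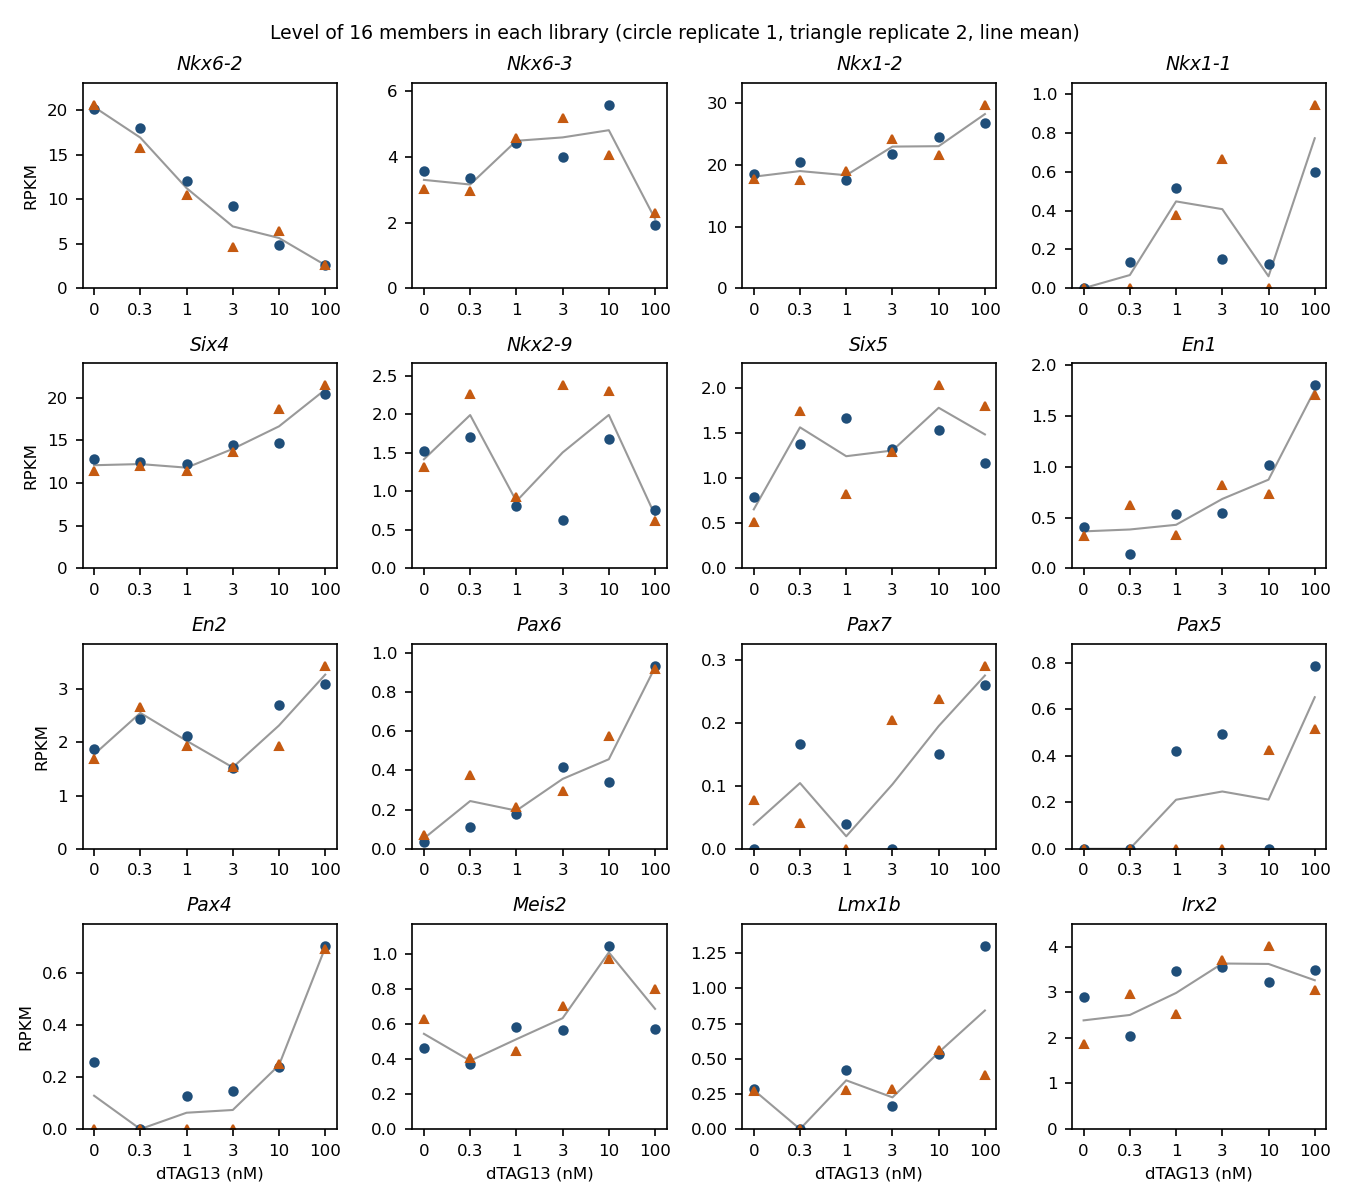
RPKM (y axes, each from 0) of 16 members against dTAG13 in nM (x axis, evenly spaced), with circles for replicate 1, triangles for replicate 2 and a line through the mean. Nkx6-2 falls at each higher concentration from 20.4 to 2.60 RPKM, while Six4, Pax6 and En1 are highest at 100 nM.

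The sine oculis genes encode homeodomain proteins of sensory placodes, muscle and kidney that work with Eya coactivators. Six4 was second only to Nkx1-2 in mean RPKM among the members, and lies on chromosome 12 (73100259 to 73113245). Its counts were 410 and 385 without dTAG13, then 388 and 374 (0.3 nM), 400 and 379 (1 nM), 404 and 431 (3 nM), 503 and 609 (10 nM) and 716 and 766 (100 nM). In RPKM it lay between 11.8 and 12.2 up to 1 nM and reached 20.9 ± 0.725 (n = 2) at 100 nM, above every other library. The log2 fold change at 100 nM was 0.79 ± 0.09 (SE; adjusted p = 2.84e-15). At 10 nM it was 0.46 (adjusted p = 5.76e-05), under the 1.5-fold minimum. Six6, which lies nearby at 72939945 to 72944899, had at most 2 counts in any library.

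Six5, a relative on chromosome 7 (19094544 to 19098345) known for its place beside Dmpk, had 13 and 9 counts without dTAG13, then 22 and 28 (0.3 nM), 28 and 14 (1 nM), 19 and 21 (3 nM), 27 and 34 (10 nM) and 21 and 33 (100 nM). All 10 libraries with dTAG13 were above both controls, but with no order among the concentrations. The log2 fold change was 1.44 at 10 nM (adjusted p = 0.00402) and 1.18 at 100 nM (adjusted p = 0.0246). The slope did not pass the test (adjusted p = 0.116). The 100 nM call was lost without replicate 2 of 0 nM (adjusted p = 0.287) or of 100 nM (0.367), with DESeq2 (0.14) and in a pairwise fit (0.129). Six2 and Six3, which act in kidney and forebrain, had at most 6 counts in any library and were not called.

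Pax genes encode paired-box factors, of which Pax6 is needed for the eye and Pax7 for muscle stem cells. Pax6 (chromosome 2, 105668896 to 105698410) had 1 and 2 counts without dTAG13, then 3 and 10 (0.3 nM), 5 and 6 (1 nM), 10 and 8 (3 nM), 10 and 16 (10 nM) and 28 and 28 (100 nM). The groups of 0 and 100 nM were far apart, and all libraries with dTAG13 lay above both controls. From the 3 counts at 0 nM, the ratio of 100 to 0 nM was 17.4 (exact 95% interval 5.65 to 86.8, for counting error only, as for all such intervals and floors here, since the reads carry no molecular identifiers). The adjusted p was 4.47e-08 at 100 nM, 0.0015 at 10 nM and 0.0241 at 3 nM. Pax6 lost its 3 nM call with DESeq2, in a pairwise fit and without either 0 nM library or replicate 1 of 3 nM. Pax6 had been picked by the study from these libraries, so its direction is not independent evidence. The exons of Pax6 share 1091 bases with Elp4 on the other strand, a gene at 2.10 RPKM at 0 nM and 1.93 at 100 nM, and without strand the reads of the 2 genes there cannot be told apart.

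Pax4, Pax5 and Pax7, which act in the endocrine pancreas, B cells, and muscle and neural crest, were called by their slope and not at 100 nM in the quasi-likelihood test. Pax4 had 2 and 0 counts without dTAG13 against 6 and 6 with 100 nM, a ratio of 5.58 (exact 95% interval 1.24 to 51.4). Pax5 had none in the 4 libraries of 0 and 0.3 nM and 6 and 4 counts at 100 nM, at least 3.10-fold higher than the floor of 3 counts over the 0 nM group. Pax7 had 0 and 2 counts without dTAG13 against 7 and 8 with 100 nM, a ratio of 6.98 (1.62 to 62.9). All 3, picked by their slope on these same libraries, were separated between 0 and 100 nM, at very low counts. Of all genes under 1 RPKM, 33.7% also had both 100 nM libraries above both controls. At 100 nM the adjusted p of Pax5 was 0.0726 in the quasi-likelihood test and 0.0179 in edgeR's likelihood ratio test, which also called Pax7 (0.0479). The slopes were 0.72 (Pax4, adjusted p = 0.0228), 0.82 (Pax5, 0.0252) and 0.52 (Pax7, 0.0416) in log2 per step of concentration. The Pax4 and Pax5 slopes missed the threshold in the 8 libraries of 0, 1, 10 and 100 nM (adjusted p = 0.0997 and 0.0983). Leaving out 1 library ended the Pax7 slope call for 8 of the 12 libraries, at an adjusted p of up to 0.103, and DESeq2 did not call it (0.0569). It ended the Pax5 call without either 0 nM library or replicate 1 of 100 nM (up to 0.0862) and the Pax4 call without either 100 nM library (up to 0.0911). The other 5 Pax genes had at most 10 counts in any library. The 9 Pax genes together went from 2.37 ± 0.152 to 10.2 ± 0.467 CPM (n = 2), a ratio of 4.29, the highest of the 10 families. Pax6, with 3 counts at 0 nM and 56 at 100 nM, is a large part of that rise, and the ratio without it was not computed.

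En1 and En2, the engrailed genes of the midbrain and hindbrain border, were both called at 100 nM. En1 (chromosome 1, 120602487 to 120607991) had 6 and 5 counts without dTAG13, then 2 and 9 (0.3 nM), 8 and 5 (1 nM), 7 and 12 (3 nM), 16 and 11 (10 nM) and 29 and 28 (100 nM). Its groups overlapped with the controls up to 1 nM and not at 3 nM or above. It rose from 0.366 ± 0.0603 to 1.76 ± 0.0666 RPKM (n = 2), a log2 fold change of 2.24 ± 0.50 (SE; adjusted p = 1.3e-04).

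En2 (chromosome 5, 28165696 to 28172166) had 38 and 36 counts without dTAG13, then 48 and 53 (0.3 nM), 44 and 41 (1 nM), 27 and 31 (3 nM), 59 and 40 (10 nM) and 69 and 78 (100 nM). The 3 nM libraries were the lowest and the 100 nM libraries the highest. Its log2 fold change at 100 nM was 0.88 ± 0.24 (SE; adjusted p = 0.00322), and the slope over all concentrations did not pass the test. The call at 100 nM was lost without replicate 2 of 0 nM (adjusted p = 0.0656) or of 100 nM (0.0588).

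The 14 Nkx genes held the highest member, the one called lower, and many near 0. Nkx6-2 (chromosome 7, 139579376 to 139582797), a factor of ventral neural progenitors and oligodendrocytes, had 221 and 238 counts without dTAG13, then 192 and 169 (0.3 nM), 135 and 119 (1 nM), 89 and 50 (3 nM), 57 and 72 (10 nM) and 31 and 32 (100 nM). No library with dTAG13 reached either control. In RPKM it fell from 20.4 ± 0.316 to 2.60 ± 0.0243 (n = 2), to 12.8% of the 0 nM level, a log2 fold change of -2.96 ± 0.19 (SE; adjusted p = 3.91e-52). The level was 83.1% of 0 nM at 0.3 nM (adjusted p = 0.923), 55.2% at 1 nM (adjusted p = 4.46e-06), 34.1% at 3 nM (8.43e-19) and 27.7% at 10 nM (3.44e-26). Within the other label series, 3 nM lay below 0.3 nM by a log2 fold change of -1.31 (adjusted p = 1.02e-11). Exons of Nkx6-2 share 246 bases with Inpp5a on the other strand, which was at 4.83 RPKM at 0 nM and 4.46 at 100 nM.

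Nkx1-2 (chromosome 7, 132596239 to 132599637), a marker of the caudal epiblast and early neural plate, had the highest mean level of the members. Its counts were 203 and 204 without dTAG13, then 218 and 187 (0.3 nM), 197 and 217 (1 nM), 208 and 263 (3 nM), 288 and 241 (10 nM) and 321 and 363 (100 nM). Both 100 nM libraries lay above all others. It rose from 18.1 ± 0.605 to 28.3 ± 2.09 RPKM (n = 2), a log2 fold change of 0.64 ± 0.12 (SE; adjusted p = 2.39e-06), close to the 1.5-fold minimum, and without replicate 2 of 100 nM it fell under that minimum (0.57). Nkx1-1 (chromosome 5, 33430734 to 33434090), its near relative, had no count without dTAG13, then 1 and 0 counts (0.3 nM), 4 and 3 (1 nM), 1 and 5 (3 nM), 1 and 0 (10 nM) and 5 and 8 (100 nM). The 100 nM level was at least 4.03-fold higher than the floor of 3 counts over the 0 nM group (adjusted p = 0.0216). At 10 nM it was back at 1 count, and the slope did not pass the quasi-likelihood test but did pass the likelihood ratio test (adjusted p = 0.0342). The 100 nM call was lost without either 0 nM library (adjusted p = 0.132 and 0.148) or without replicate 2 of 100 nM (0.15), and in a pairwise fit (0.0832).

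Nkx6-3, a factor of the stomach lining, had 46 and 41 counts without dTAG13, then 42 and 37 (0.3 nM), 58 and 61 (1 nM), 45 and 66 (3 nM), 77 and 53 (10 nM) and 27 and 33 (100 nM). Its level was 146% of 0 nM at 10 nM and 64.0% at 100 nM, and the 100 nM libraries lay below all others. The log2 fold change at 100 nM was -0.64 ± 0.27 (SE; adjusted p = 0.106). Nkx2-9, a ventral midline factor, was at 11 and 10 counts without dTAG13 against 6 and 5 with 100 nM, with a log2 fold change of -1.02 (adjusted p = 0.295), and at 3 nM its libraries had 4 and 17 counts. Nkx2-4, a hypothalamus and thyroid factor, had none at 0 nM and 4 and 3 counts at 100 nM, at least 2.17-fold higher. Its 10 nM libraries held 0 and 8 counts. As a family, the Nkx genes went from 83.7 ± 1.29 to 69.7 ± 5.77 CPM (n = 2), a ratio of 0.833, as Nkx6-2 lost more than the others together gained.

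The Lhx, Dlx, Irx, Lmx1, Meis and Emx genes gave no call at any concentration or by slope in edgeR's quasi-likelihood test with TMM factors. At 100 nM DESeq2 called none of the 27. None had an unadjusted p under 0.05 there, where 10.8% of all genes were higher and 13.8% lower. By slope, the likelihood ratio test called Irx2, Meis2 and Lmx1b higher, and so did the quasi-likelihood test for Irx2 and Meis2 with upper quartile factors and for all 3 without factors. Meis2 and Lmx1b had also been chosen by the study on these libraries. Meis2, a homeodomain partner of PBX and HOX proteins, had 14 and 20 counts without dTAG13, then 34 and 30 (10 nM) and 19 and 27 (100 nM). The 10 nM libraries were the highest, and the groups of 0 and 100 nM overlapped, with a log2 fold change of 0.33 (adjusted p = 0.654). Lmx1b, a factor of dorsal limb and midbrain dopamine neurons, had 2 and 2 counts without dTAG13, then 4 and 4 (10 nM) and 10 and 3 (100 nM), where a single library carried most counts. The fitted log2 fold change gave an adjusted p of 0.393, and the ratio of summed counts was 3.02 (exact 95% interval 0.934 to 12.7).

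The Irx genes, of which Irx2 (chromosome 13, 72628978 to 72634194) marks heart, lung and neural regions, were led by Irx2 at 41 and 28 counts without dTAG13 against 54 and 48 with 100 nM. Its 2 groups did not overlap, and its log2 fold change of 0.46 gave an adjusted p of 0.276. Irx4, a ventricle factor, had 3 and 10 counts without dTAG13 against 3 and 4 with 100 nM, with a log2 fold change of -0.96. Dlx3 and Dlx5, which act in ectoderm and craniofacial bone, had log2 fold changes of -0.95 and -0.87, and no Dlx gene exceeded 7 counts in a library. The 6 Dlx genes together were at 2.12 ± 0.198 CPM at 0 nM and 2.12 ± 0.751 at 100 nM (n = 2). The 8 Lhx genes of neurons and limb went from 3.97 ± 0.213 to 7.25 ± 0.986 CPM (n = 2), a ratio of 1.83. In 4 of the 8, including Lhx2 and Lhx6, both 100 nM libraries lay above both controls, beside 27.8% of all genes and 33.7% of genes under 1 RPKM.

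The summed level of the Olfr genes was also higher at 100 nM. Their summed counts were 351 and 329 without dTAG13, then 264 and 268 (0.3 nM), 342 and 326 (1 nM), 369 and 405 (3 nM), 556 and 500 (10 nM) and 935 and 966 (100 nM). The sum was lowest at 0.3 nM, was near the control level at 1 nM and was highest at 100 nM. In CPM it went from 57.6 ± 4.75 to 150 ± 1.49 (n = 2), a ratio of 2.60, and 522 Olfr genes had a count in 1 of the 100 nM libraries against at most 206 in a 0 nM library. No Olfr gene was called at 100 nM by edgeR or DESeq2. At an unadjusted p under 0.05, 4 of 1030 were higher and 0 lower, against 10.8% and 13.8% of all genes. By slope, 71 of 1030 were called higher and 3 lower, against 9.29% and 10.7% of all genes. Among the 11826 genes under 1 RPKM these slope calls numbered 1218 and 137, so the Olfr slope calls did not exceed the background. Vmn1r and Vmn2r genes, vomeronasal receptors that are likewise background-level here, had a ratio of 2.57.

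The 49 members under 1 RPKM had summed counts of 101 and 137 without dTAG13, then 125 and 123 (0.3 nM), 133 and 117 (1 nM), 142 and 136 (3 nM), 196 and 196 (10 nM) and 258 and 276 (100 nM). Their sum went from 20.1 ± 3.56 to 42.0 ± 1.46 CPM (n = 2), a ratio of 2.09, which lay below the Olfr ratio of 2.60 and above the ratio of 1.48 for all 11826 genes under 1 RPKM. Without the 6 that were called at a concentration or by slope (a set trimmed on these values, so only a description), the 43 others went from 18.6 to 29.2 CPM, a ratio of 1.57. The 9 members of at least 1 RPKM had a ratio of 1.31 and the 39 Hox genes one of 1.76. At 0.3 nM the low members summed to 22.2 ± 0.339 CPM (n = 2), within the spread of their 0 nM libraries.

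**Figure D4:**
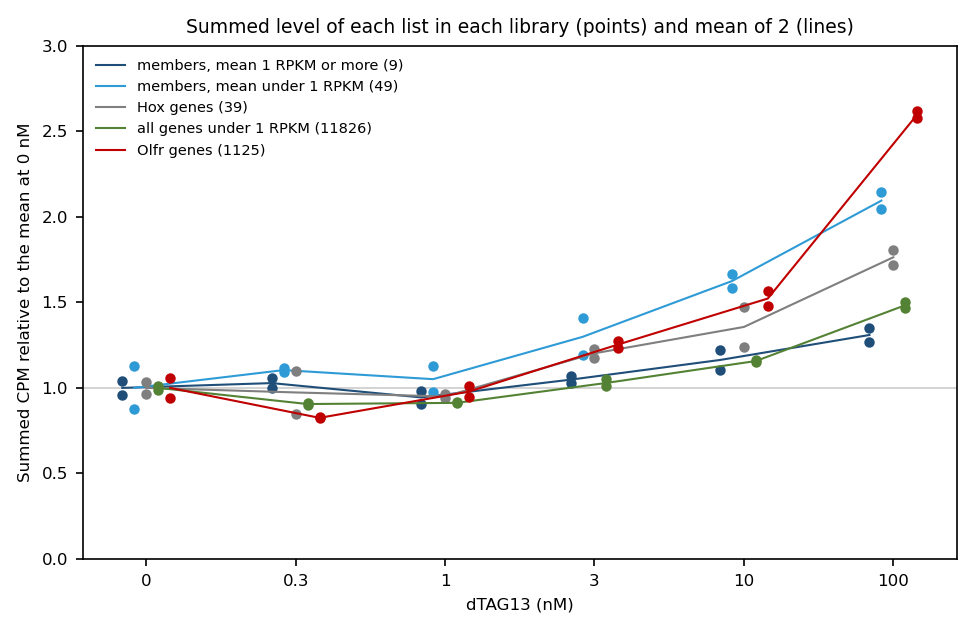
Summed CPM of each list relative to its mean at 0 nM (y axis, from 0) against dTAG13 in nM (x axis, evenly spaced), with a point for each library and a line through the mean of 2. At 100 nM the Olfr sum stands at 2.60, the members under 1 RPKM at 2.09, Hox genes at 1.76, all genes under 1 RPKM at 1.48 and the members of at least 1 RPKM at 1.31.

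Division by length leaves these ratios unchanged. By absolute gain in CPM per kb, the low members lay above the Olfr genes, from a higher level at 0 nM. The Olfr total gained 0.0803 CPM per kb from 0 to 100 nM (0.0503 to 0.131), and the low members gained 0.176 CPM per kb (0.161 to 0.336). A gain above that of the Olfr total was seen for 29 of the 49 low members (59.2%), against 56.0% of all genes under 1 RPKM. This share is near the background and says nothing particular of the members. Among members called higher, the gain in RPKM was 127 times the Olfr gain for Nkx1-2, 110 times for Six4 and 18.6 times for En2. It was 17.3 times for En1, 10.9 times for Pax6 and 10.3 times for Six5. Such multiples depend on the starting level, which was 18.1 RPKM for Nkx1-2 and 12.1 for Six4. By ratio, Nkx1-2 (1.56), Six4 (1.73), En2 (1.85) and Six5 (2.28) lay below the Olfr ratio of 2.60. En1 (4.82) and Pax6 (17.4) lay above it.

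When the summed Olfr counts were used as library sizes, so that a change is relative to the Olfr total, the median log2 fold change of expressed genes moved from -0.08 to -1.46. On this scale 2 members were called higher at 100 nM, against 0.198% of all genes. Pax6 was one of them, at a log2 fold change of 2.67 (adjusted p = 5.32e-04). En1 kept its sign at 0.88 but missed the threshold (adjusted p = 0.175). Six4 (-0.58), En2 (-0.49), Nkx1-2 (-0.74) and Six5 (-0.19) turned negative, which is to say that they rose by less than the Olfr total. Called lower were 8 members (Nkx6-2, Nkx6-3, Nkx2-9, Nkx1-2, Irx2, Irx4, Meis2 and Dlx3), against 50.0% of all genes. By level, these were 3 of the 49 members under 1 RPKM, against 9.23% of such genes, and 5 of the 9 others, against 92.4%. By slope, only Pax6 was higher relative to the Olfr total (0.29 in log2 per step, adjusted p = 0.0224; 1.04% of all genes), and 12 members were lower (51.0%).

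**Figure D5:**
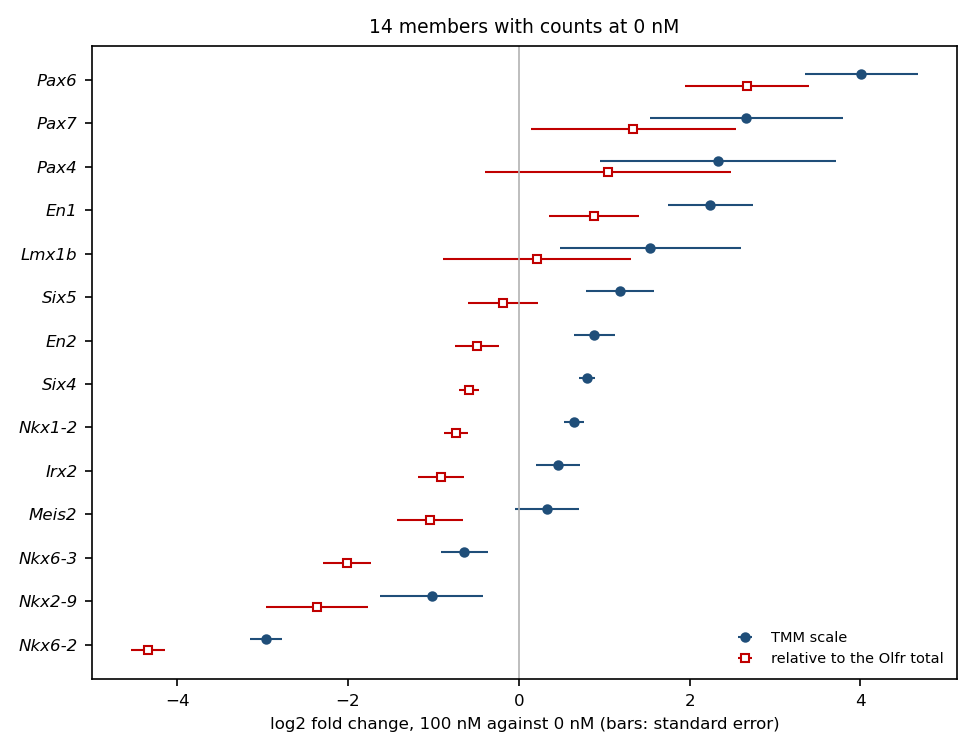
Log2 fold change of 100 nM against 0 nM (x axis; bars are the standard error) for 14 members (rows) with TMM library sizes (filled circles) and relative to the Olfr total (open squares). Pax6 (2.67) stays above 0 past the test on the Olfr scale, while Six5, En2, Six4 and Nkx1-2 change sign.

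Genes that act with the members were followed beside them. Of 24 partners (Eya and Dach coregulators, Pbx and Pknox proteins, and Groucho corepressors among them), none was called higher at 100 nM by edgeR or DESeq2. In edgeR 2 were called lower, against 3.37% of all genes higher and 4.62% lower. At an unadjusted p under 0.05, 1 was higher and 6 lower (10.8% and 13.8% of all genes). The median log2 fold change was 0.09. Tle3, a Groucho corepressor, fell from 21.2 ± 1.13 to 8.93 ± 0.245 RPKM (n = 2; log2 fold change -1.25, adjusted p = 3.46e-34). Pknox2, a partner of PBX proteins, fell from 2.15 ± 0.0117 to 0.776 ± 0.0415 RPKM (n = 2; adjusted p = 1.33e-04). By slope, 6 partners were lower (Tle3, Pknox2, Pknox1, Pbx2, Eya1 and Eya3) and none was higher, against 10.7% and 9.29% of all genes.

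Of 62 other homeobox genes, 4 were called higher at 100 nM (Cdx2, Evx1, Hesx1 and Dmbx1) and 4 lower (among them Cdx1, Tlx2 and Msx2). Of all genes 3.37% were called higher and 4.62% lower. The median log2 fold change of the 62 was 0.84. The caudal genes Cdx1 and Cdx2 went opposite ways, with Cdx1 falling from 32.2 ± 1.69 to 9.0 ± 1.01 RPKM (n = 2; adjusted p = 1.3e-39). By slope, 8 of the 62 were higher and 3 lower, against 9.29% and 10.7% of all genes. Of 8 antisense transcripts beside members, Six3os1, which runs next to Six3, was called higher at 100 nM (log2 fold change 2.52, adjusted p = 0.0182), while Six3 was not called. Of the markers of other cell types, Tubb3 among 10 neural genes went from 32.9 ± 2.40 to 56.7 ± 0.936 RPKM and Kdr among 7 mesoderm genes from 0.109 ± 0.0260 to 0.721 ± 0.154 (n = 2), and both were called higher at 100 nM. None of 7 endoderm or 7 fibroblast markers was called at 100 nM by edgeR or DESeq2. At an unadjusted p under 0.05, 1 endoderm marker was lower (13.8% of all genes) and 1 fibroblast marker higher (10.8%). The summed level went from 94.9 ± 3.80 to 136 ± 2.57 CPM for the neural list, from 48.5 ± 7.29 to 62.6 ± 1.08 for mesoderm, from 6.87 ± 1.09 to 6.77 ± 0.361 for endoderm and from 3.82 ± 0.262 to 7.49 ± 1.32 for fibroblasts (n = 2). Msgn1 of the mesoderm list had no count at 0 or 100 nM, and Neurog2 of the neural list had none at 100 nM. The part of other cell types in the members' values was not tested.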

How the data were processed

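RNA-seq was analysed for 12 libraries of mES cells. The authors trimmed reads with Trim Galore, aligned them to mm10 with HISAT2 and deposited raw counts per gene symbol from featureCounts 2.0.1 (per the file headers, paired and unstranded), with no filter or normalization. Members and gene lists were chosen with earlier results of these data known. All 23204 genes with at least 1 count were fitted with TMM factors in edgeR 4.0.16 (R 4.3.3, limma 3.58.1), the 6 concentrations together, by the quasi-likelihood test. DEGs had an adjusted p under 0.05 and over 1.5-fold change. The authors' filter of 1 RPKM would drop most members and was an alternative, as were the likelihood ratio test named in the study's methods, DESeq2 1.42.0, other scalings, a replicate block and leaving out libraries. Named members were those called, those of at least 1 RPKM, those the study picked, and the 5 highest and 5 lowest changes among members with at least 24 counts. Exact 95% intervals of count ratios and a floor of 3 counts per group were used. Same-numbered replicates did not deviate together (correlations of -0.139 to 0.122). The fit was tested on simulated data. Some genes are counted in the lists but not reported singly here.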

Additional observations from a re-analysis of the deposited data

How the results depend on the processing

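Counts of called members under other settings were as follows. Relative to the Olfr total, the median log2 fold change of expressed genes at 100 nM moved to -1.46, members called higher became 3 at 0.3 nM (En2 and Six5 among them), 2 at 100 nM and 1 by slope, and members called lower became 8 at 100 nM and 12 by slope. With genes of at least 1 RPKM only, which leaves out Pax6, En1 and Nkx1-1, members called higher became 1 at 3 nM, 5 at 100 nM and 3 by slope. At 3 nM the count was 1 (without Pax6) in a pairwise fit and with DESeq2. The likelihood ratio test called 11 members higher at 100 nM and 12 by slope, and slope calls were 12 without factors and 11 with upper quartile factors, with Irx2 and Meis2 among them under both (Irx2 also with DESeq2 size factors). DESeq2 called 6 at 100 nM and 7 by slope, and a pairwise fit 6 at 100 nM. With the edgeR expression filter 7 and 6 were called at 100 nM and by slope. With upper quartile factors 1 member was called higher at 1 nM, and with no fold minimum 5 at 10 nM. With 1 library left out, members called higher ranged from 0 to 1 at 1 nM, 1 to 2 at 3 nM, 1 to 5 at 10 nM and 4 to 8 at 100 nM. The extremes came without replicate 2 of 1 nM or replicate 1 of 3 nM (1 at 1 nM), without either 0 nM library or replicate 1 of 3 nM (Pax6 lost at 3 nM), without replicate 1 or 2 of 10 nM (5 and 1 at 10 nM), and without replicate 2 of 0 nM or of 100 nM (5 and 4 at 100 nM). Nkx6-2 remained called lower at 100 nM and by slope under every alternative run. Pax6 remained called higher at 100 nM wherever it was tested. The cause of these changes was not tested, apart from the filter, which tests fewer genes. Over all genes, the 782 higher and 1072 lower calls at 100 nM became 1046 and 803 with upper quartile factors, 1005 and 757 without factors, 876 and 924 with DESeq2 size factors, 46 and 11601 relative to the Olfr total, 383 and 957 above 1 RPKM, 332 and 784 in a pairwise fit and 337 and 682 with DESeq2.

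Values that changed sign were few. Relative to the Olfr total at 100 nM, log2 fold changes were -0.58 (Six4), -0.91 (Irx2), -1.04 (Meis2), -0.49 (En2), -0.19 (Six5) and -0.74 (Nkx1-2), and slopes were -0.13 (Six4), -0.16 (Irx2), -0.10 (Meis2), -0.19 (En2), -0.14 (Six5) and -0.16 (Nkx1-2). The slope of Nkx6-3, near 0, was 0.0070 with upper quartile factors, 0.013 without factors, and from -0.056 to 0.056 with 1 library left out, positive without replicate 1 (0.056) or 2 (0.041) of 100 nM. With 1 library left out, Irx4 at 100 nM ranged from -1.55 to 0.086 and its slope from -0.23 to 0.089, both positive without replicate 2 of 0 nM. Of 912 recomputed values of single members, 825 kept their direction and side of the threshold, 33 lost it, 36 gained it and 18 changed sign. The summed ratio of the members was 1.39, 1.52 without TMM factors and 1.84 without its 3 genes with the most counts. That of the Olfr genes was 2.60, 2.83 without TMM factors and 2.91 without its top 3, and the ratio of the first to the second was 0.536 and 0.632 without both top 3.

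With the replicate number as a replicate block, 734 genes were called higher and 1072 lower at 100 nM, and the counts of called members were 8 and 1. The numbers did not pair the libraries. Depth limits the members: 44 of 58 had at most 10 counts in every library, so changes of such genes were mostly not detectable, and a member without a call is not shown to be unchanged.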
